A study of Danio rerio with 8 samples.

Results

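Transcript levels of 3 genes, fabp1b.1, hnf4b and gc, were followed through early zebrafish (Danio rerio) development in normoxia and in low oxygen. They were found by matching RefSeq transcript identifiers to gene symbols, and they are 3 of the 2650 named genes in a table of 37157 rows. Each has 1 row: NM_001024651 for fabp1b.1, NM_205546 for hnf4b and NM_001002568 for gc. The genes were chosen on measured values of these arrays. fabp1b.1 was chosen by its differences between the stages in normoxia and between hypoxic and normoxic gastrulae, gc by its hypoxia difference averaged over the stages, and hnf4b as a further measured gene of the list that held fabp1b.1. That list is none of the 7 lists used below, which place fabp1b.1 and hnf4b apart. The values that chose a gene are therefore given as a description with no test.

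The arrays measured total RNA of pooled whole wildtype embryos freed of their chorions, 12 to 15 per sample, in 4 groups, with no strain named in the labels. Normoxic gastrulae (shield stage, 6 h of development) and normoxic segmentation embryos (8 somites, 12 h) had 2 arrays each. Hypoxic gastrulae had 2 arrays, and hypoxic segmentation embryos had 1 array with values. The listed ages were the same in hypoxia, 6 h for gastrulae and 12 h with 8 somites for segmentation embryos. Hypoxia meant 1 to 2 h in water held below 1% oxygen under nitrogen, and all embryos were raised at the same temperature. Nothing in the labels says that the replicates came from separate clutches, so p-values measure the spread between these arrays. Values are on a log2 scale, as inferred from their range, so a difference of 1 is a doubling of signal.

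The arrays had close medians, from 8.51 to 8.74, but unequal spreads. The interquartile range was 2.31 and 2.18 on the hypoxic gastrula arrays against 2.75 to 3.02 on the normoxic arrays. Rows of middle and high brightness therefore moved towards each other in hypoxic gastrulae. The median difference from normoxic gastrulae was 0.20 for rows with means between 8.31 and 8.67, and -0.56 for rows between 10.99 and 12.36. Such medians are given beside the members' hypoxia differences, and their part in the results was not tested. The stage labels were compared with 4 measured somite and muscle markers. Of these, meox1, smyd1b and ripply1 rose from gastrula to segmentation by 3.01, 1.4 and 1.41 (limma adjusted p = 0.015, 0.023 and 0.017). The other, acta1b, differed by 0.95 ± 0.23 and did not pass (limma adjusted p = 0.072). The 3 measured neural markers, sox19b, her3 and fezf2, differed by -0.27, 0.47 and 0.87 (limma adjusted p = 0.63, 0.64 and 0.066). In hypoxic gastrulae these neural markers differed by -0.41, 0.97 and 0.34. Of 2 measured epidermal markers, agr1 rose by 2.60 ± 0.35 (limma adjusted p = 0.017) and krt97 differed by -0.44 ± 0.26 (limma adjusted p = 0.46), and in hypoxic gastrulae they differed by 1.27 ± 0.35 and -0.16 ± 0.26. Of 3 measured blood and vessel markers, runx1 differed by 1.23 ± 0.19 in hypoxic gastrulae, hbae3 by 0.25 ± 0.20 and spi1b by 0.13 ± 0.18, none of them past the adjusted threshold; the part of such markers in the results was not tested. Of 16 fixed markers of the yolk syncytial layer, 0 have a named row, so the tissue that gave the signal could not be checked. In whole embryos, more cells of a type and more RNA per cell cannot be told apart.

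Before the liver and gut form, a fish embryo feeds from its yolk through the yolk syncytial layer, a multinucleate tissue that takes up yolk lipid and packs it with apolipoproteins for export. The proteins of this route resemble those of liver and intestine. fabp1b.1 encodes a fatty acid-binding protein of the liver type, a small cytosolic protein that carries long-chain fatty acids. hnf4b encodes a nuclear receptor of the HNF4 family, whose mammalian member HNF4A controls many genes of hepatocytes and enterocytes. gc encodes the vitamin D-binding protein, a secreted plasma protein of the albumin family that is made by the liver in mammals. Only fabp1b.1 is thus a carrier of fatty acids; hnf4b encodes a transcription factor and gc a plasma carrier of vitamin D.

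The fatty acid carrier fabp1b.1 was bright at both stages and brighter at segmentation. In normoxic gastrulae its log2 values were 13.03 and 12.46, and in hypoxic gastrulae they were 13.83 and 13.58. In normoxic segmentation embryos they were 15.60 and 15.88, and the hypoxic segmentation array had 15.28. All 3 segmentation arrays lay above all 4 gastrula arrays, an order whose share of all rows was not counted. At the gastrula stage both hypoxic arrays lay above both normoxic ones, as in 31.5% of all rows. The gene was chosen on these differences, so nothing is read from either order.

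From gastrula to segmentation the mean of fabp1b.1 in normoxia went from 12.75 to 15.74, a difference of 3.0 ± 0.19 (SE, n = 2 arrays per group), or 7.97-fold as measured, with the segmentation values next to the top of the array scale. Differences and their standard errors come from a linear model over all arrays with labelling dye as a covariate. The median difference of all rows in that contrast was -0.06, and the difference of fabp1b.1 was the 454th highest of 37157. The gene was chosen by this contrast, so nothing is read from its place in it. In hypoxia the mean went from 13.71 in 2 gastrula arrays to 15.28 on the segmentation array, a dye-adjusted difference of 1.76 ± 0.25, or 3.38-fold. The stage difference of fabp1b.1 was positive at both oxygen levels and lower in hypoxia. Values that chose the gene enter both differences, so nothing is read from this comparison.

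The segmentation values of fabp1b.1 lay close to the top of the array scale. The highest value of any row on these 3 arrays was 15.96, 15.94 and 15.85, which exceeded fabp1b.1 by 0.35, 0.06 and 0.57. Only 41 rows were brighter than fabp1b.1 on the second normoxic segmentation array. Whether the scale limits the values of fabp1b.1 at this end was not tested. On the reference assembly the neighbouring gene is fabp1b.2, a relative of fabp1b.1 without a named row, and the probe sequences that would show whether the row separates both genes were not used here.

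**Figure D1:**
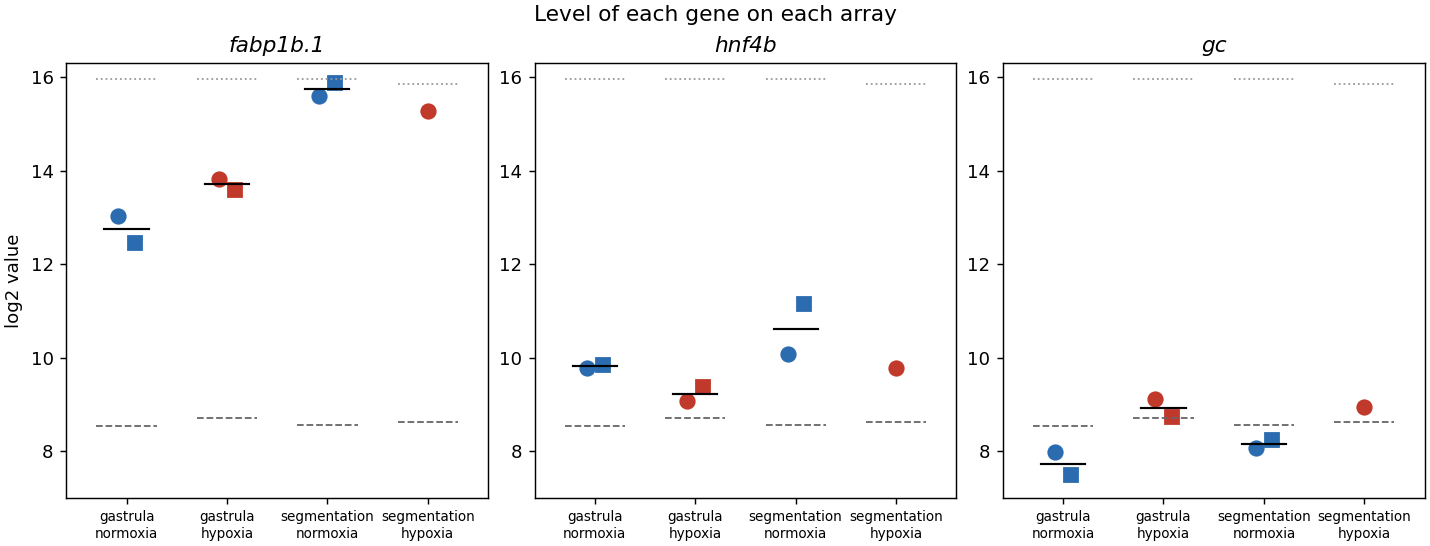
Log2 values of fabp1b.1, hnf4b and gc on the 7 arrays (vertical axis), by group (horizontal axis). Circles are replicate 1 and squares replicate 2, blue is normoxia and red hypoxia; solid bars are means of 2 arrays, dashed lines the mean of the array medians and dotted lines the highest value of any row in that group. fabp1b.1 at segmentation sits next to the dotted lines, and gc is higher on all 3 hypoxic arrays than on all 4 normoxic ones. gc was chosen on its hypoxia difference and the share of all rows with this order was not counted, so nothing is read from it.

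The transcription factor gene hnf4b had values of 9.77 and 9.85 in normoxic gastrulae and 9.07 and 9.37 in hypoxic gastrulae. In segmentation embryos it had 10.08 and 11.14 in normoxia and 9.77 in hypoxia. The groups did not overlap within a stage or within an oxygen level. Hypoxic arrays lay below both normoxic ones at both stages in 22.2% of all rows. The share for the stages was not counted, so nothing is read from that order. The 2 normoxic segmentation arrays were further apart (SD 0.75) than those of any other group of 2, and than their mean was from the hypoxic array.

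The stage difference of hnf4b in normoxia was 0.81 ± 0.37, from a mean of 9.81 to 10.61, and did not pass (n = 2 per group; limma adjusted p = 0.3). Its 95% interval, from -0.16 to 1.77, holds 0 as well as differences larger than those of gc in hypoxia. In hypoxia the stage difference was 0.67 ± 0.48 (limma adjusted p = 0.62), and it was 0.40 without replicate 1 of hypoxic gastrulae and 1.2 without replicate 2. The normoxic value turned on the spread at segmentation: it was 1.43 without replicate 1 of normoxic segmentation and 0.18 without replicate 2, and the hypoxia difference at that stage was -1.56 and -0.31. The lower values in hypoxia did not pass either. At the gastrula stage the difference was -0.59 ± 0.37, with an interval from -1.55 to 0.38 (limma adjusted p = 0.38), and at segmentation it was -0.73 ± 0.48, with an interval from -1.97 to 0.52 (limma adjusted p = 0.87). The gastrula value also turned on single arrays: it was -0.19 and -0.98 without replicate 1 or 2 of hypoxic gastrulae, and -0.36 without replicate 2 of normoxic gastrulae. Rows as bright as hnf4b had median hypoxia differences of -0.19 and -0.15 at these stages.

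The plasma protein gene gc was dim. Its values were 7.97 and 7.48 in normoxic gastrulae, 9.11 and 8.73 in hypoxic gastrulae, 8.06 and 8.23 in normoxic segmentation embryos and 8.95 in the hypoxic segmentation sample. All 3 hypoxic arrays were above all 4 normoxic arrays. The share of all rows with this order was not counted, and gc was chosen on its hypoxia difference, so nothing is read from it. On each normoxic array gc lay below the array median, by 0.31 to 1.03, while on the hypoxic arrays it lay 0.41 above, 0.02 below and 0.33 above it. On the second normoxic gastrula array 34515 of 37157 rows were brighter than gc, and the lowest value of any row was 6.88. Whether this end of the scale limits the differences and folds of gc was not tested.

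The hypoxia difference of gc was 1.19 ± 0.19 at the gastrula stage, from a mean of 7.72 to 8.92, or 2.29-fold. It was 0.98 ± 0.24 at segmentation, from 8.14 to 8.95, or 1.97-fold after adjustment for dye and with 1 hypoxic array. Rows as bright as gc also had positive medians, 0.20 and 0.07. The differences of gc were larger, but the gene was chosen by them, so nothing is read from the gap. The order of gc levels was normoxic gastrula, normoxic segmentation, hypoxic gastrula and hypoxic segmentation. The last 2 groups were not separated, since the segmentation value of 8.95 fell between the 2 gastrula values. The stage difference in normoxia, which did not serve to choose gc, was 0.42 ± 0.19 and did not pass (limma adjusted p = 0.29, 95% interval -0.07 to 0.91).

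**Figure D2:**
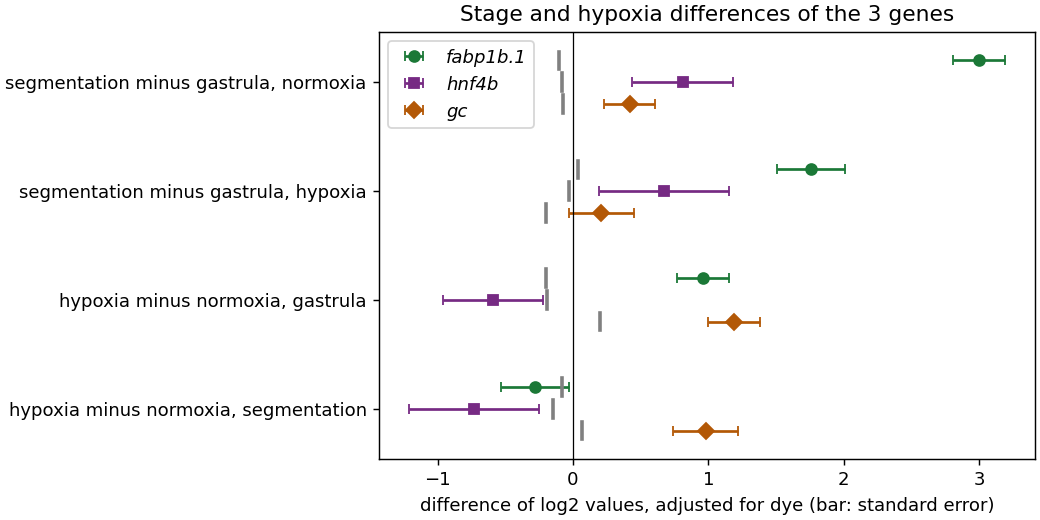
Fitted differences of log2 values (horizontal axis) for fabp1b.1, hnf4b and gc in 4 comparisons (vertical axis), with standard errors as bars; grey ticks are the median difference of the rows in the same of 10 bins of mean level as each gene. fabp1b.1 has the stage difference of 3.0 in normoxia, gc is near 1 in both hypoxia comparisons, and hnf4b is below 0 in both with wide errors.

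fabp1b.1 and gc were chosen by different contrasts, so nothing is read from how far the patterns of the 3 genes differ. Their Pearson correlations over 7 arrays, given as a description since the arrays share stages and treatments, were 0.585 for fabp1b.1 and hnf4b, 0.312 for fabp1b.1 and gc, and -0.436 for hnf4b and gc. The hypoxia differences at the 2 stages had the same sign for gc, positive, and for hnf4b, negative. For fabp1b.1 they were 0.96 ± 0.19 at the gastrula stage and -0.28 ± 0.25 at segmentation, where rows of its brightness had medians of -0.20 and -0.08. Of all rows, hypoxic arrays lay above both normoxic ones at both stages in 21.6% and below both at both stages in 22.2%, so the patterns of gc and hnf4b were each common in the table. The pattern of fabp1b.1, above at the gastrula stage and below at segmentation, was that of 2.92% of rows, a share from which nothing is read, since the gene was chosen on values that make up the pattern.

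The difference between the hypoxia differences, segmentation minus gastrula, was -1.24 ± 0.31 for fabp1b.1, -0.14 ± 0.61 for hnf4b and -0.21 ± 0.31 for gc. For hnf4b it did not pass (limma adjusted p = 1), and its 95% interval ran from -1.71 to 1.43. Of all rows, 0% passed for this difference.

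**Figure D3:**
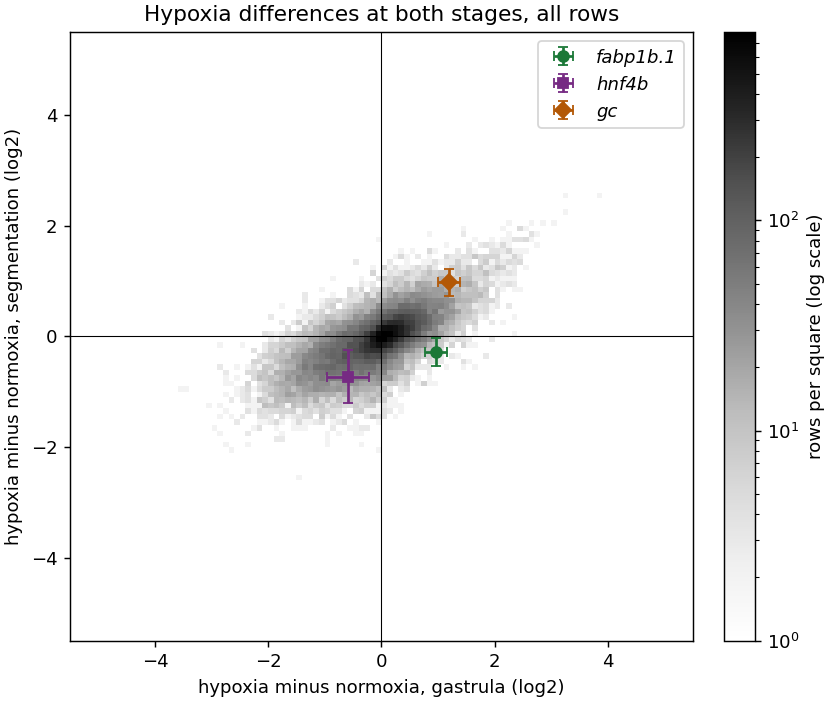
Hypoxia minus normoxia on the log2 scale at the gastrula stage (horizontal axis) and at segmentation (vertical axis); grey squares count all 37157 rows, darker for more rows on a log colour scale, and bars on the 3 genes are standard errors. gc lies at 1.19 and 0.98, hnf4b at -0.59 and -0.73, and fabp1b.1 at 0.96 and -0.28, above 0 on one axis and below it on the other.

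Among 2649 other named genes, those with patterns most like each of the 3 were listed by Pearson's r over the 7 arrays, as a description. For fabp1b.1 they were zgc:113184 (0.988), gna14, a G protein alpha subunit gene (0.984), trappc1, of vesicle tethering (0.982), wu:fu71h07 (0.981) and the cytochrome P450 gene cyp2aa1 (0.980). gna14 had 9.58 and 9.53 in normoxic gastrulae, 10.33 and 9.97 in hypoxic gastrulae, 12.43 and 12.60 in normoxic segmentation embryos and 12.24 in the hypoxic one. Like fabp1b.1, it was higher in both hypoxic gastrula arrays and lower in the hypoxic segmentation array than in the normoxic arrays of its stage. It was picked for following fabp1b.1 over these same arrays, so nothing is read from this likeness.

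For hnf4b the closest were wdr54 (0.983), tmem129 (0.971), the glycerol-3-phosphate dehydrogenase gene gpd1a (0.971), gart, of purine synthesis (0.971), and zgc:112023 (0.962). Each of these was also highest on the second normoxic segmentation array, the array that set hnf4b apart from its replicate. tmem129 had 12.13 there and 11.22 on the other. They were picked for following hnf4b over these same arrays, so nothing is read from the shared peak. For gc they were rtn4rl1b, related to the Nogo receptor (0.975), rbpjb, a transcription factor gene of the Notch pathway (0.951), cnih2 (0.946), the aldo-keto reductase gene akr1b1.1 (0.941) and ttll11, of tubulin modification (0.929). rtn4rl1b varied little, from 7.29 to 7.65.

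Other genes of lipid carriage, plasma proteins and their regulators were taken from 7 lists of 307 names, of which 33 beside the 3 had a named row. From gastrula to segmentation in normoxia 3 of the 33 rose and 0 fell (limma adjusted p under 0.05), or 9.09%, beside 10.1% of all rows, 6.21% higher and 3.88% lower. That share is near the background, so the lists as a whole did not stand apart by this count. The median difference of the 33 was -0.01, beside -0.06 over all rows.

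The 3 that rose were pla2g12b, rbp5 and serpinf2b. pla2g12b encodes a catalytically inactive phospholipase relative that is needed for normal lipoprotein secretion in zebrafish and mouse. Its values were 10.89 and 10.81 in normoxic gastrulae, 11.19 and 11.12 in hypoxic gastrulae, 13.74 and 13.51 in normoxic segmentation embryos and 13.60 in hypoxia. The stages were far apart and the oxygen levels close. It rose by 2.78 ± 0.19 in normoxia (limma adjusted p = 0.0042) and by 2.43 ± 0.25 in hypoxia, where it was the only 1 of the 33 that passed (limma adjusted p = 0.026), beside 2.4% of all rows. The call of pla2g12b between the stages in hypoxia was made in 10 of 16 settings. It was lost, among others, without any 1 of the normoxic segmentation or hypoxic gastrula arrays and with the compared groups alone, with adjusted p up to 0.3.

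rbp5 encodes a cytosolic retinol-binding protein of the same family as fabp1b.1. Its means of 2 arrays were 10.25 in normoxic gastrulae, 10.77 in hypoxic gastrulae and 12.39 in normoxic segmentation embryos, and it had 12.62 on the hypoxic segmentation array. It was higher on all segmentation arrays and rose by 2.15 ± 0.24 in normoxia (limma adjusted p = 0.01), a call made in 14 of 17 settings and lost, among others, without either normoxic segmentation array (adjusted p up to 0.07). Of the other 2 measured genes of that family, fabp4a differed by 1.65 ± 0.36 (limma adjusted p = 0.055) and the brain-type gene fabp7a by 0.29 ± 0.26 (limma adjusted p = 0.68).

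serpinf2b encodes an inhibitor of plasmin, a plasma protein of the liver in mammals. Its values were 8.19 and 7.75 in normoxic gastrulae, 8.36 and 8.32 in hypoxic gastrulae, 10.12 and 10.84 in normoxic segmentation embryos and 9.05 in hypoxia. The hypoxic segmentation value lay between those of gastrulae and of normoxic segmentation embryos. It rose by 2.51 ± 0.23 in normoxia (limma adjusted p = 0.0069, and up to 0.073 over 17 settings, of which 15 kept the call; it was lost, among others, without the second normoxic segmentation array). The hypoxia difference at segmentation, -1.23 ± 0.30, did not pass (limma adjusted p = 0.61).

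For hypoxia, 0 of the 33 genes passed at either stage, as did 0% of all rows. In gastrulae these counts depended on the fit: without the dye term 1 of the 33 and 3025 of all rows passed. At an unadjusted p under 0.05 in limma, 5 were higher and 2 lower in hypoxic gastrulae, beside 11% and 15.8% of all rows, and 0 were higher and 1 lower at segmentation, beside 2.47% and 4.62%. In hypoxic gastrulae 15 of the 33 lay above both normoxic arrays and 7 below both, beside 31.5% and 29.8% of all rows. The 2 hypoxic arrays of gc and fabp1b.1 lay above and those of hnf4b below.

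Among the 7 other secreted plasma protein genes of the list that held gc, 6 had positive differences in hypoxic gastrulae, with a median of 0.45, beside 0.01 over all rows and 51.5% of rows above 0. Rows of the brightness of these 7 had medians from 0.03 to 0.20. In 5 genes both hypoxic arrays lay above both normoxic ones, beside 31.5% of all rows. In c8a, with -0.22 ± 0.24, both lay below, beside 29.8% of all rows. The gene hamp, which encodes the iron hormone hepcidin, was singled out after its values were seen. It had 7.90 and 7.79 in normoxic and 8.73 and 8.92 in hypoxic gastrulae. Like gc it was dim and higher on both hypoxic arrays, with a difference of 0.98 ± 0.19 that did not pass (limma adjusted p = 0.075, and 0.035 without the dye term). The coagulation factor gene f10, likewise singled out after its values were seen, differed by 0.98 ± 0.27 (limma adjusted p = 0.11). Rows of their brightness had a median difference of 0.20.

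**Figure D4:**
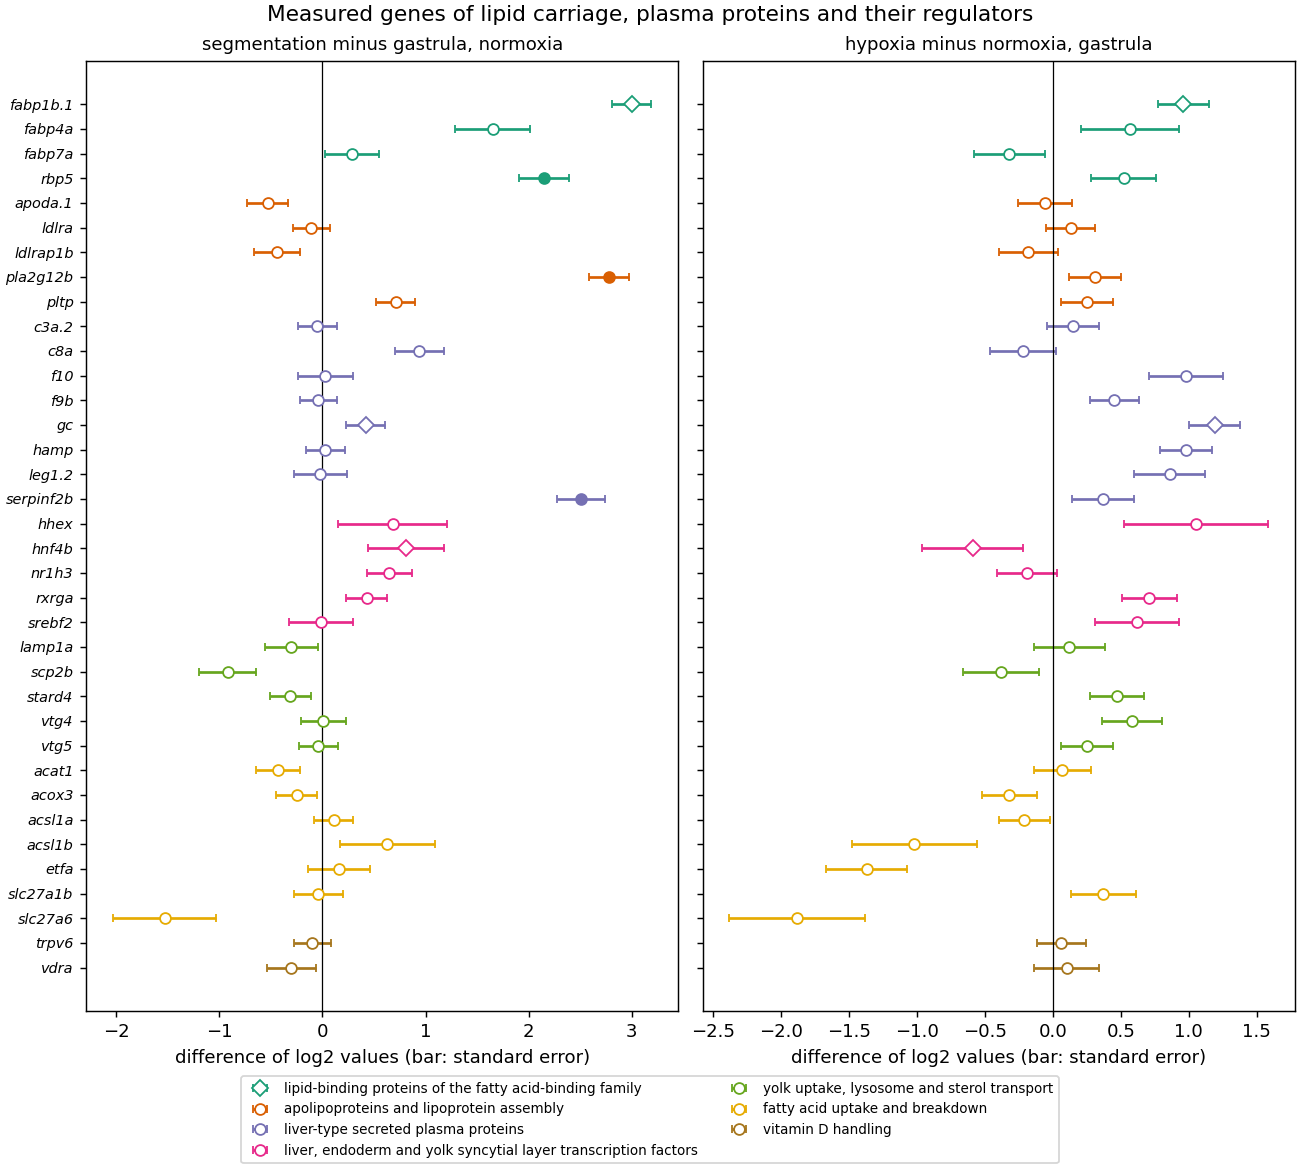
Differences of log2 values (horizontal axes) with standard errors for the 36 measured genes of the 7 lists, by gene (vertical axis), between the stages in normoxia (left) and between oxygen levels in gastrulae (right). Diamonds are fabp1b.1, hnf4b and gc, all drawn open; filled circles passed at an adjusted p under 0.05. The filled genes on the left are rbp5, pla2g12b and serpinf2b, and the right panel has none.

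Regulators listed with hnf4b gave no call. The endoderm and liver homeobox gene hhex had the values 11.11 and 9.50 in normoxic gastrulae, further apart than the difference of 1.05 ± 0.53 to hypoxic gastrulae (limma adjusted p = 0.28). The sterol regulator gene srebf2 differed by 0.62 ± 0.31 between oxygen levels at the gastrula stage (limma adjusted p = 0.28), and the liver X receptor gene nr1h3 by -0.19 ± 0.22 (limma adjusted p = 0.64). Between the stages in normoxia nr1h3 differed by 0.65 ± 0.22 (limma adjusted p = 0.15) and hhex by 0.68 ± 0.53 (limma adjusted p = 0.61). srebf2 differed by -0.01 ± 0.31 and rxrga, a retinoid X receptor gene, by 0.43 ± 0.20, also without a call, beside 0.81 for hnf4b.

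The measured vitellogenin genes, vtg4 and vtg5, which encode yolk protein precursors and were singled out after their values were seen, were dim. vtg4 had 7.85 and 7.59 in normoxic and 8.15 and 8.46 in hypoxic gastrulae, 7.76 and 7.72 in normoxic segmentation embryos and 7.95 in hypoxia. Like gc and 21.6% of all rows, vtg4 lay above both normoxic arrays in hypoxia at both stages. It had no call (0.58 ± 0.22 in gastrulae, limma adjusted p = 0.17), and rows of its brightness had a median of 0.17 there. At segmentation the hypoxic value of vtg5, 7.44, lay between its normoxic values of 7.24 and 7.49. The stage differences of vtg4 and vtg5 were 0.01 ± 0.22 and -0.04 ± 0.19 (limma adjusted p = 0.99 and 0.98). The list of yolk uptake, lysosome and sterol transport, with 5 measured genes that include both, had no call between the stages, with a median difference of -0.30. The sterol carrier gene scp2b differed by -0.92 ± 0.28 (limma adjusted p = 0.13), the lysosomal membrane gene lamp1a by -0.30 ± 0.26 (0.68) and the cholesterol transfer gene stard4 by -0.31 ± 0.20 (0.5), each a limma adjusted p. Of 7 genes of fatty acid uptake and breakdown 0 passed either. In hypoxic gastrulae their median was -0.32, beside 0.01 over all rows. The electron transfer flavoprotein gene etfa had 11.84 and 10.92 there, against 12.69 and 12.80 in normoxia. Its difference of -1.37 ± 0.30 did not pass (limma adjusted p = 0.084), nor did that of the fatty acid transporter gene slc27a6, likewise chosen after its values were seen and with normoxic values of 9.36 and 10.67, -1.88 ± 0.50 (limma adjusted p = 0.11). Further genes without a call were the acyl-CoA synthetase gene acsl1b, -1.02 ± 0.46 (limma adjusted p = 0.24), and the thiolase gene acat1, 0.07 ± 0.21 (limma adjusted p = 0.87). Rows as bright as etfa, slc27a6, acsl1b and acat1 had medians of -0.20, 0.08, -0.50 and -0.19 in hypoxic gastrulae. The vitamin D receptor gene vdra and the calcium channel gene trpv6, the measured genes of vitamin D handling beside gc, differed by 0.10 ± 0.24 and 0.06 ± 0.18 in hypoxic gastrulae (limma adjusted p = 0.85 and 0.88).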

How the data were processed

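The deposited values are on a log2 scale, judged by their range, and RMA made them, per the submitters' processing notes. Array design and scanner are not given in the sources used here. One hypoxic segmentation sample, replicate 2, has an empty column, which left 7 of 8 samples. Of 3055 rows with RefSeq identifiers, 2663 matched 1 symbol in RefSeq genes of GRCz12tu, an assembly taken here for gene names and neighbours only. These are 7.17% of rows, and a gene not named here may have an unnamed row. A gene with several rows was taken as its row with the highest mean.

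A linear model with 4 groups and labelling dye (Cy3 or Cy5) was fitted to all rows (limma 3.58.1, R 4.3.3), followed by eBayes and Benjamini-Hochberg adjustment over all rows at 0.05, two-sided. It had 2 residual and 2.92 prior degrees of freedom, so few arrays limit the precision. The fit was tested on simulated data. Errors are standard errors of this fit. Dyes are balanced in every group of 2, so dye changes the size only of differences that involve the hypoxic segmentation array. Standard errors and calls of the other differences also depend on dye. For the stage difference of fabp1b.1 in normoxia the standard error was 0.19 with dye and 0.25 without. Same-numbered arrays of different stages had opposite dyes, so the dye term cannot stand in for pairs across the stages. In normoxia the deviations of such arrays correlated at 0.54. A replicate block over both stages, in place of dye, gave 4 list genes and 4367 rows between the stages in normoxia. The main fit gave 3 and 3749. Pairs in normoxia alone were not tested.

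Members, lists and tests were chosen with earlier results of these data known. The text names the members, list genes past the threshold, up to 3 bright genes of each list without one, and the 5 closest patterns per member. Other list genes named (fabp4a, fabp7a, hamp, f10, c8a, rxrga, vtg4, vtg5 and slc27a6) were chosen after their values were seen. Alternatives covered dye, replicate number, normalization, a filter on dim rows, variance models, the arrays used and the threshold.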

Additional observations from a re-analysis of the deposited data

Results flagged for a closer look

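The hypoxia difference of fabp1b.1 was 0.96 ± 0.19 at the gastrula stage and -0.28 ± 0.25 at segmentation, the latter with a 95% interval from -0.92 to 0.36 that holds 0 and with values 0.06 to 0.57 below the highest of any row. Both hypoxic gastrula arrays lay above both normoxic ones, and the hypoxic segmentation array lay below both normoxic ones. The difference between the 2 responses was -1.24 on the log2 scale, and it was not tested, since the gene was chosen with these values known. For serpinf2b the hypoxic arrays also lay above the normoxic ones in gastrulae and below them at segmentation, as in 2.92% of all rows. Its difference between the 2 responses was -1.61 ± 0.38 and did not pass. The gene was flagged by this value, so nothing is read from it. Both differences rest on 1 hypoxic segmentation array.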

How the results depend on the processing

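The differences of fabp1b.1 kept their direction in the alternatives run. They moved by more than 1 SD with the replicate block within stage (2.65 for the stage difference in normoxia and 1.37 in hypoxia) and after quantile normalization again (1.25 for hypoxia in gastrulae and -1.53 for the difference between responses). For gc the replicate block over both stages, in place of dye, gave 0.69 for hypoxia at segmentation, -0.50 for the difference between responses and -0.08 for the stage difference in hypoxia, which was -0.18 with the block within stage, where its stage difference in normoxia was 0.12. The difference between responses of hnf4b changed sign with the block within stage (0.28) and after quantile normalization (0.02), and ran from -0.97 to 0.39 with 1 array left out: 0.16 without gastrula normoxia replicate 1, 0.28 without segmentation normoxia replicate 2 and 0.39 without gastrula hypoxia replicate 2. Of the 33 list genes, between the stages in normoxia 1 passed with the block within stage, 5 with an intensity trend, 6 at a threshold of 0.1, and 1 to 6 with 1 array left out. For hypoxia in gastrulae, where 0 passed, 1 passed without dye, 1 with an intensity trend, 2 at 0.1, and 0 to 7 with 1 array left out, the 7 being without gastrula normoxia replicate 1. For the stage difference in hypoxia 2 passed in the fit without dye, with arrays centred on medians, when the dimmest 25% of rows were dropped and at 0.1, 0 with the block within stage or with the compared groups alone, and 0 to 3 with 1 array left out. Over all rows, 1 array left out gave 619 to 6036 calls between the stages in normoxia (3749 with all arrays), 0 to 8275 for hypoxia in gastrulae (0) and 0 to 2568 between the stages in hypoxia (890). The highest of each came without gastrula normoxia replicate 1 (the last also without replicate 2), the lowest of the first without segmentation normoxia replicate 2. The block within stage gave 676 and 0 for the stage differences, and a threshold of 0.1 gave 5847, 1734 and, for hypoxia in gastrulae, 4287. The fit without dye gave 3025 for hypoxia in gastrulae, 9 at segmentation and 1555 between the stages in hypoxia, where the compared groups alone gave 0. For hypoxia in gastrulae an intensity trend gave 1712, centring 1300, dropping the dimmest rows 2002 and the block over both stages 1375. For the difference between responses all counts were 0. The cause of these changes was not tested. With the block within stage the calls between the stages of rbp5 and serpinf2b in normoxia and of pla2g12b in hypoxia were lost. Deviations of same-numbered arrays correlated at -0.146 between the gastrula groups, 0.54 between the normoxic groups and -0.273 between hypoxic gastrulae and normoxic segmentation. The main fit took no pairs, despite 0.54. A crossed pairing, added after the data were seen, gave 5348 rows and 6 list genes for hypoxia in gastrulae, and 2286 rows between normoxic stages.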
